A study of Saccharomyces cerevisiae with 31 samples.

Results

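The anaphase-promoting complex (APC), the SCF ligases and the wider machinery of ubiquitin conjugation were followed as budding yeast (Saccharomyces cerevisiae) grew large without dividing. The set holds 42 genes, taken by name from the 6713 genes of the authors' deposited table of scaling scores. It falls into 3 groups: the APC with its activators (16 genes), the SCF core with its F-box genes (9 genes), and ubiquitin conjugation with the Cdc48 complex (17 genes).

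Ubiquitin is a small protein that marks other proteins, often for destruction by the proteasome. It is activated by an E1 enzyme, passed to an E2 conjugating enzyme, and joined to the target with the help of an E3 ligase. The APC and the SCF are the ligases best known for driving the cell cycle. The APC, switched on by Cdc20 or Cdh1, destroys securin and mitotic cyclins, and Cdc28 phosphorylation holds Cdh1 off. The SCF recognises targets phosphorylated by the cyclin-dependent kinase through exchangeable F-box proteins, and in this way destroys the CDK inhibitor Sic1 and the G1 cyclins.

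The 31 RNA-seq libraries make 6 series. Cdc28-as cells, whose cyclin-dependent kinase Cdc28 is an analog-sensitive form blocked by the compound 1NM-PP1, gave 4 series. In 3 of these the cells were first sorted by size in a centrifuge (elutriation) and then given 1NM-PP1: experiment 1 (5 libraries, 15.23 to 50.77 fl of cell size), experiment 2 (3 libraries, 14.92 to 41.8 fl) and experiment 3 (3 libraries, 18.61 to 66.46 fl). The fourth was an unelutriated time course in 1NM-PP1 (8 libraries, 21.56 to 44.02 fl). Wild-type (WT) cells, labelled with the same treatments, gave an elutriated control (6 libraries, 2 to 7 h) and an unelutriated control (6 libraries, 0 to 6 h). All cells grew in rich medium with ethanol, and Candida albicans cells were added before RNA extraction. Each library is a bulk culture, so fewer cells with a transcript and less transcript per cell cannot be told apart. Cell size and time in the arrest increase together and cannot be told apart either.

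The table holds 1 score per gene and series. As far as the table can show it, the scores of experiments 1 and 3 and of the WT controls behave as a slope of transcript level, taken relative to the level in the first library of the series. The slope is per fl for Cdc28-as series and per hour for WT series. The slope of a gene seen only in the first library was held by 104 and 111 genes in experiments 1 and 3 and by 96 and 44 in the elutriated and unelutriated WT controls. In experiment 2 and the time course 2 and 3 genes held it, so the reading is an assumption there, and so are the fitted changes of these series. It remains unstated whether a level is a library share or is set against the Candida RNA. Over the 5771 genes scored in all 3 experiments, the median gene scored 0.00735, 0.0110 and 0.00178 per fl in experiments 1, 2 and 3. Over the 5758 of these also scored in the time course, it scored -0.0202 per fl there. Values below named "over the median gene" have these medians taken off. A score times the size span of its series gives a fitted change as a multiple of the starting level. It is a fitted quantity, not a measured difference between libraries. Over all genes scored in the elutriated and unelutriated WT controls, the median scores were 0.136 and -0.0390 per hour and the highest 378 and 2.80. Read as a slope relative to the first library, a score grows large where the level there is low. That level is unknown for each gene, so its part in large WT scores was not tested. The authors' median read count in experiment 1 is the sole depth per gene, and depth per library is unknown. It was 19 over all genes and 24.75 over the 42 genes, and 37 of the 42 reached 10 reads. The table has no value that checks the Cdc28-as allele, and whether the 3 experiments came from separate cultures is not stated, so p-values measure the spread between these series.

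Of the 42 genes, 15, 17 and 22 lay above the median gene in experiments 1, 2 and 3, and few took the same side throughout. The TPR subunit gene CDC16 was the only one of the 42 above the median gene in all 3 experiments (2.38%, against 22.3% of all 5771 genes tested). Below it in all 3 were 7 of 42 (16.7%, against 22.5% of all genes): the APC genes CDC27, DOC1 and MND2, the APC activator gene CDH1, and the E2 genes UBC6, UBC8 and RAD6. With the time course as well, CDC16 was still above in all 4 Cdc28-as series (13.1% of 5758 genes were) and 6 of these 7 below (13.4% of all genes were), CDC27 being at the median there (0.000155 per fl over it). No gene passed limma's one-sample test with Benjamini-Hochberg adjustment at 0.05, in the set or in the whole table (0 of 42 genes and 0.00% of 5771). At an unadjusted p under 0.05 limma had 4 of the 42, CDC16, CDC27, DOC1 and UBC8, against 8.99% of all genes, with a lowest adjusted p of 0.460.

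**Figure D1:**
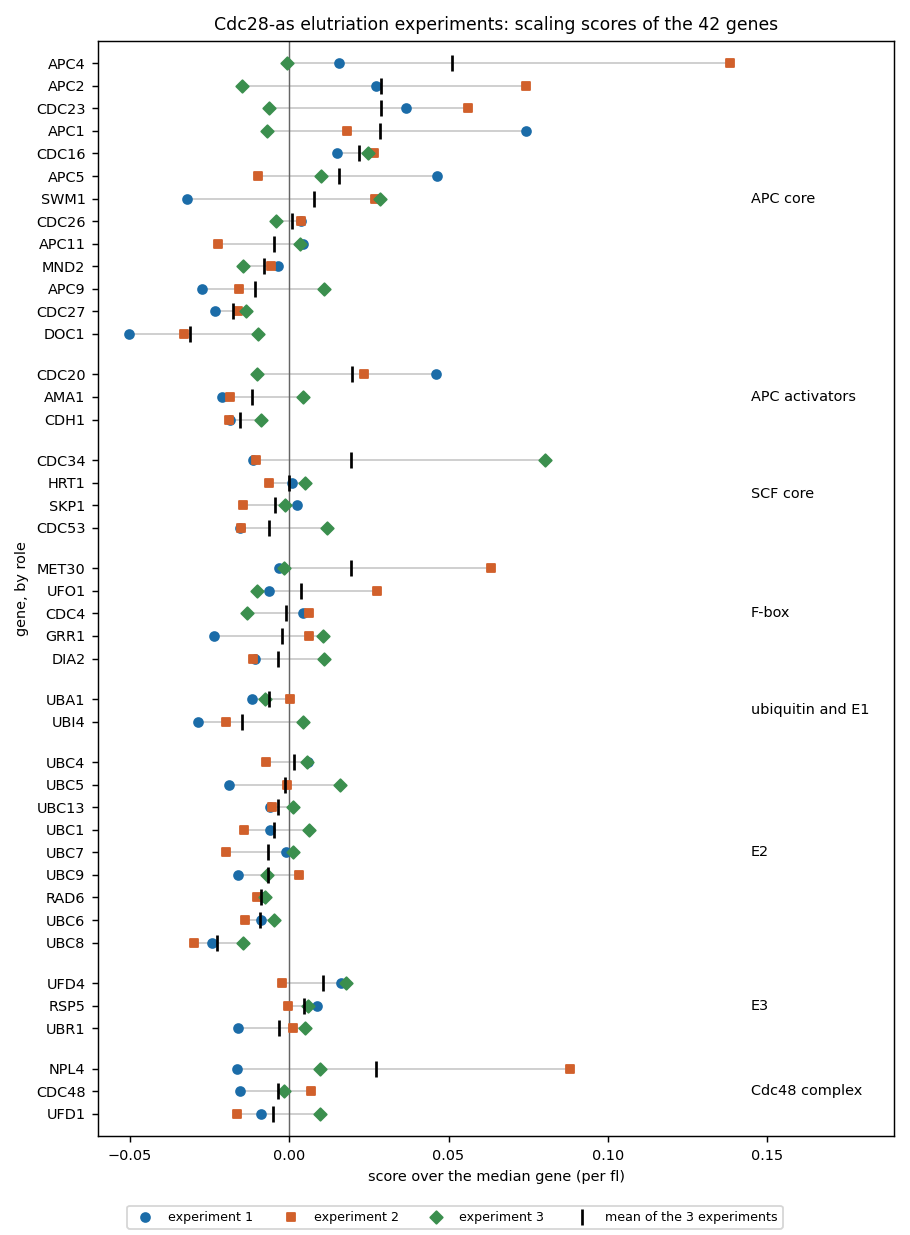
Scaling score over the median gene (per fl, horizontal axis) of each of the 42 genes (vertical axis, by role) in the 3 Cdc28-as elutriation experiments; black ticks are means. Points of CDC16 lie right of 0 in all 3 experiments, while APC4 reaches 0.138 in experiment 2 alone.

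Scores of the APC core were spread wider between genes than those of all genes tested. Over the median gene, its 13 genes had medians of 0.00418, 0.00361 and -0.00431 per fl in experiments 1, 2 and 3. Its scores had an interquartile range of 0.0504, 0.0424 and 0.0199 per fl, against 0.0402, 0.0323 and 0.0168 per fl over all genes. The APC core had a median of 16 reads, and all genes with 10 to 20 reads had 0.0425, 0.0336 and 0.0191 per fl, close to the APC core in experiment 3. The part of read depth in this spread was not tested. Counted gene by gene, 8, 7 and 5 of 13 lay above the median gene.

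The platform subunits Apc1, Apc4 and Apc5 hold the complex together, and Apc2, a cullin-like protein, forms its catalytic module with the RING protein Apc11. APC4 (9.5 reads) scored 0.0230, 0.149 and 0.000997 per fl in experiments 1, 2 and 3, -0.0231 per fl in the time course, and 0.137 and -0.0136 per hour in the elutriated and unelutriated WT controls. APC2 (23 reads) scored 0.0346, 0.0853 and -0.0130 per fl, -0.0244 per fl in the time course, and 0.211 and 0.0178 per hour in WT. APC1 (17 reads) scored 0.0817, 0.0291 and -0.00532 per fl. Each of these genes was high in experiment 1, experiment 2 or both, and below the median gene in experiment 3. Their means over the median gene were 0.0511 ± 0.0761 for APC4, 0.0289 ± 0.0446 for APC2 and 0.0284 ± 0.0417 per fl for APC1 (SD, n = 3 experiments; limma adjusted p = 0.498, 0.511 and 0.501). The spread between experiments was larger than the mean in each. APC5 scored 0.0536, 0.00112 and 0.0118 per fl, high in experiment 1. APC11 scored 0.0115, -0.0113 and 0.00507 per fl and stayed near the median gene outside experiment 2.

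The TPR subunits, Cdc16, Cdc23 and Cdc27, form the arms that bind the activators, and their genes took different sides of the median gene. CDC16 (21.5 reads) scored 0.0223, 0.0375 and 0.0264 per fl, -0.0118 per fl in the time course, and -0.00437 and -0.0409 per hour in WT. These are fitted changes of 0.792, 1.01 and 1.26 times the starting level in experiments 1, 2 and 3 and -0.264 in the time course. Its mean over the median gene was 0.0220 ± 0.00619 per fl (SD, n = 3 experiments; limma adjusted p = 0.460), and this gene varied less between experiments than APC4, APC2 and APC1. CDC23 (9.5 reads) scored 0.0441, 0.0671 and -0.00461 per fl, -0.0221 per fl in the time course, and 0.211 and 0.0314 per hour in WT. It was high in experiments 1 and 2 and low in experiment 3. CDC27 (17.5 reads) scored -0.0159, -0.00508 and -0.0119 per fl, -0.0200 per fl in the time course and -0.0306 per hour in the unelutriated WT control. Its mean was -0.0176 ± 0.00497 per fl over the median gene (SD, n = 3; limma adjusted p = 0.460). CDC26, whose small product stabilises Cdc16, stayed near the median gene at 0.0109, 0.0146 and -0.00254 per fl.

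Among the smaller subunits, DOC1, which encodes a substrate-binding subunit, had the lowest mean of the 42, -0.0311 ± 0.0203 per fl over the median gene (SD, n = 3; limma adjusted p = 0.460). Its scores were -0.0431, -0.0220 and -0.00811 per fl, -0.0690 per fl in the time course, and 0.0232 and 0.0506 per hour in WT. The fitted change in experiment 1, -1.53 times the starting level, lies below -1, past a full loss of the starting level, and the gene had a median of 0 reads. SWM1, also a small subunit gene, had 2 reads and scored -0.0247, 0.0378 and 0.0303 per fl. MND2, which encodes the subunit that restrains Ama1 (16 reads), scored 0.00383, 0.00538 and -0.0128 per fl, -0.0411 per fl in the time course, and -0.102 and -0.232 per hour in WT. APC9, which encodes a subunit tied to Cdc27, scored -0.0199, -0.00466 and 0.0126 per fl, low in experiments 1 and 2 and high in experiment 3.

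The 3 activator genes did not share a side of the median gene. CDC20, which encodes the mitotic activator (12 reads), scored 0.0533, 0.0345 and -0.00848 per fl in experiments 1, 2 and 3, -0.0187 per fl in the time course, and 0.316 and 0.0964 per hour in WT. CDH1, which encodes the activator of late mitosis and G1 (15.5 reads), scored -0.0111, -0.00789 and -0.00723 per fl, -0.0251 per fl in the time course, and -0.183 and -0.0706 per hour in WT. AMA1, which encodes the meiotic activator (16 reads), scored -0.0139, -0.00767 and 0.00614 per fl, and -0.0332 per fl in the time course. CDC20 was thus above both others in experiments 1 and 2 and below both in experiment 3. As fitted changes CDC20 gave 1.90, 0.926 and -0.406 times the starting level and CDH1 -0.396, -0.212 and -0.346. The means over the median gene were 0.0197 ± 0.0283 per fl for CDC20 and -0.0155 ± 0.00560 per fl for CDH1 (SD, n = 3; limma adjusted p = 0.508 and 0.460). The 3 activator genes had medians of -0.0185, -0.0187 and -0.00901 per fl relative to the median gene, below that of the APC core in each experiment. With 3 activator genes this is a description and was not tested.

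**Figure D2:**
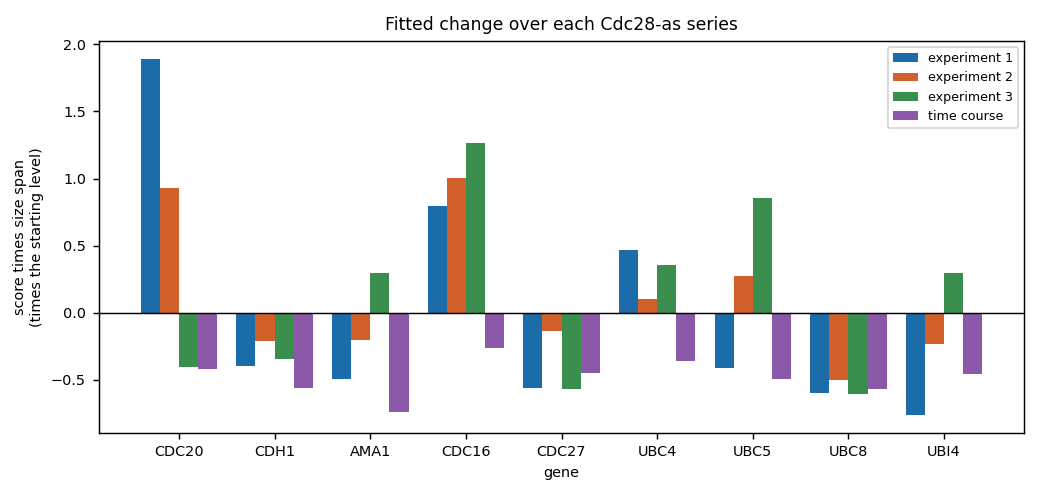
Fitted change over each Cdc28-as series, as score times size span in multiples of the starting level (vertical axis), for APC activators, 2 TPR subunit genes, 3 E2 genes and UBI4 (horizontal axis). CDC27, CDH1 and UBC8 lie below 0 in all 4 series. CDC20 is above 0 in experiments 1 and 2 and below it in experiment 3 and the time course. In the time course all 42 genes scored below 0, as did 95.3% of all genes scored there.

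The SCF core gave mixed values. Over the median gene, the 4 genes had medians of -0.00524, -0.0125 and 0.00843 per fl in experiments 1, 2 and 3. SKP1, which encodes the adaptor that holds F-box proteins (63.5 reads), scored 0.00992, -0.00343 and 0.000397 per fl, -0.0195 per fl in the time course, and 3.48 and 0.280 per hour in WT. HRT1, which encodes the RING subunit, scored 0.00821, 0.00451 and 0.00686 per fl. CDC53, which encodes the cullin scaffold (41.5 reads), scored -0.00809, -0.00426 and 0.0135 per fl, -0.0287 per fl in the time course, and 0.839 and -0.0152 per hour in WT. CDC34, which encodes the E2 that works with the SCF (32.5 reads), scored -0.00398, 0.000534 and 0.0819 per fl, -0.0330 per fl in the time course, and 13.3 and 0.0988 per hour in WT. The experiment 3 value of CDC34 is a fitted change of 3.92 times the starting level and stands above every other score of the set in that experiment. Its mean over the median gene was 0.0195 ± 0.0526 per fl (SD, n = 3; limma adjusted p = 0.676).

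The 5 F-box genes were as mixed. Over the median gene, their medians were -0.00622, 0.00627 and -0.00162 per fl in experiments 1, 2 and 3. On the same side in all 3 lay 0 of 5, where 22.3% of all genes tested were above throughout and 22.5% below. With 5 genes this count is a description. CDC4, which encodes the F-box protein that targets Sic1 (22.5 reads), scored 0.0118, 0.0172 and -0.0116 per fl, -0.0184 per fl in the time course, and -0.366 and 0.188 per hour in WT. GRR1, whose product targets the G1 cyclins Cln1 and Cln2 (23 reads), scored -0.0164, 0.0173 and 0.0123 per fl, -0.0316 per fl in the time course, and 10.7 and -0.0806 per hour in WT. The pair therefore lay on opposite sides of the median gene in experiments 1 and 3. MET30, which encodes the F-box protein that restrains the sulphur regulator Met4 (36.5 reads), scored 0.00407, 0.0744 and 0.000161 per fl, -0.00733 per fl in the time course, and 0.106 and 0.220 per hour in WT. Among the elutriation experiments it was high in experiment 2 alone. DIA2, a gene of replisome unloading (30 reads), scored -0.00329, -0.000336 and 0.0127 per fl, -0.0349 per fl in the time course, and 0.198 and -0.135 per hour in WT. UFO1, whose product targets the HO endonuclease (7 reads), scored 0.00114, 0.0384 and -0.00832 per fl, -0.0296 per fl in the time course, and -0.0387 and -0.0386 per hour in WT. The highest mean of these 5 over the median gene was 0.0195 ± 0.0380 per fl for MET30 (SD, n = 3; limma adjusted p = 0.577). In the time course the F-box genes had a median percentile of 17.2 among all genes, against 36.0 for the SCF core. MET30 was at percentile 89.8 there, CDC4 at 57.9, DIA2 at 9.14, GRR1 at 13.5 and UFO1 at 17.2.

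Ubiquitin conjugation genes were the most deeply read of the set, with a median of 65.5 reads, against 15.75 for the APC with its activators and 30 for the SCF group. Per length the 9 E2 genes ran from 86.5 to 338 reads per kb of coding sequence in experiment 1, and all lay above the highest APC core gene, CDC26 at 64 reads per kb. The APC core had a median of 7.69, the F-box genes 9.62, the SCF core 41.5 and the E2 genes 197 reads per kb, against 16.5 over 5985 protein-coding genes. Of the 3 groups, ubiquitin conjugation had the narrowest scores in each experiment. For the 17 conjugation genes the interquartile range was 0.0102, 0.0144 and 0.0110 per fl in experiments 1, 2 and 3. Over all genes with 40 to 80 reads, where the median of these 17 lies, it was 0.0354, 0.0303 and 0.0146 per fl. Over those with 80 or more reads it was 0.0413, 0.0266 and 0.0101 per fl, so in experiment 3 the conjugation genes were narrower than the one bin and wider than the other. The part of read depth in the narrower range of the set was not tested.

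**Figure D3:**
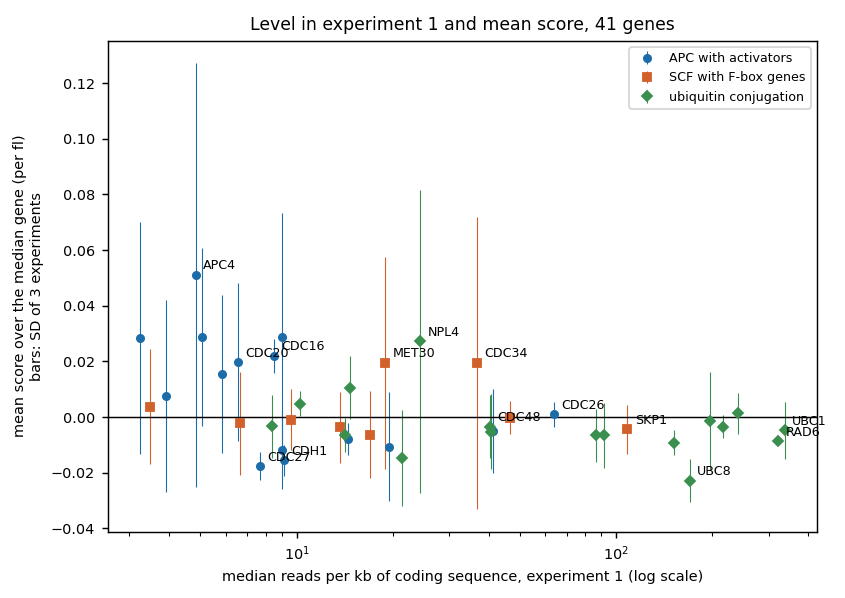
Median reads per kb of coding sequence in experiment 1 (horizontal, log scale) against the mean score over the median gene (vertical, per fl; bars, SD of 3 experiments) for the 41 genes with reads. E2 genes lie at the right, between 86.5 and 338 reads per kb, and most lie near 0.

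Ubiquitin itself is made from UBI4, a chain of ubiquitin units known for its part in stress, and from ribosomal fusion genes. UBI4 (24.5 reads) scored -0.0215, -0.00883 and 0.00610 per fl in experiments 1, 2 and 3, -0.0205 per fl in the time course, and 40.9 and 0.00863 per hour in WT. It was low in experiments 1 and 2 and above the median gene in experiment 3, with a mean of -0.0148 ± 0.0171 per fl over it (SD, n = 3; limma adjusted p = 0.494). Its coding sequence of 1146 bases in the R64 genome holds 5 ubiquitin repeats that share 80.3% to 90.4% of their bases pairwise. UBA1, which encodes the E1 enzyme (43.5 reads), scored -0.00436, 0.0112 and -0.00593 per fl, -0.0266 per fl in the time course and -0.0597 per hour in the unelutriated WT control. It was close to the median gene in experiment 2 and below it in the other two. The ubiquitin fusion genes RPL40A and RPS31 scored 0.0985 and 0.0748 per fl in experiment 1, 0.00317 and 0.00401 in experiment 2, and 0.00269 and 0.00203 in experiment 3. Both lay above the median gene in experiments 1 and 3 and below it in experiment 2. RPL40B, the remaining fusion gene, added here after its values were seen, scored 0.0714, 0.0178 and 0.00308 per fl and lay above the median gene in each.

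Of the E2 genes UBC8 stood lowest. Ubc8 is the E2 that serves destruction of gluconeogenic enzymes such as fructose-1,6-bisphosphatase. UBC8 (112 reads) scored -0.0169, -0.0188 and -0.0127 per fl in experiments 1, 2 and 3, -0.0253 per fl in the time course, and 13.3 and -0.156 per hour in WT. The fitted changes were -0.600, -0.505, -0.606 and -0.567 times the starting level in experiments 1, 2 and 3 and the time course, those of experiment 2 and the time course resting on the assumed reading of the score. It was at percentile 13.1, 5.12, 10.1 and 29.8 of all genes. Its mean over the median gene was -0.0228 ± 0.00778 per fl (SD, n = 3; limma SE 0.00652, adjusted p = 0.460). The other E2 genes lay nearer the median. UBC6, an E2 gene of endoplasmic reticulum degradation (114.5 reads), scored -0.00141, -0.00277 and -0.00311 per fl, -0.0203 per fl in the time course, and 6.44 and 0.0156 per hour in WT. RAD6, an E2 gene of DNA repair and histone marking (167 reads), scored -0.00099, 0.000771 and -0.00590 per fl, -0.0292 per fl in the time course, and -0.0785 and 0.0173 per hour in WT. Its mean over the median gene, -0.00875 ± 0.00133 per fl (SD, n = 3; limma adjusted p = 0.498), had the smallest SD of the 42. UBC7, which works beside UBC6, scored 0.00628, -0.00897 and 0.00300 per fl. UBC1, whose product extends chains for the APC, was the most deeply read at 219 reads and scored 0.00136, -0.00323 and 0.00791 per fl. UBC9, which encodes the E2 for SUMO, scored -0.00864, 0.0142 and -0.00523 per fl, and UBC13, an E2 gene of DNA damage tolerance, 0.00129, 0.00553 and 0.00307 per fl.

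UBC4 and UBC5 encode closely related E2 enzymes that serve the breakdown of short-lived proteins. Their coding sequences are 447 bases each and share 345 bases (77.2%), with no shared run longer than 14 bases. In R64 UBC4 lies at chrII:406628-407169 and UBC5 at chrIV:569234-569770, both on the minus strand. The first 90 coding bases from R64, introns removed, are shown because they bear on whether reads can be assigned to each gene, with the bases that differ in capitals.
UBC4: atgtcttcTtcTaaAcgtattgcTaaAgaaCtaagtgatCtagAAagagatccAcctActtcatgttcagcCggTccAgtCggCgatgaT
UBC5: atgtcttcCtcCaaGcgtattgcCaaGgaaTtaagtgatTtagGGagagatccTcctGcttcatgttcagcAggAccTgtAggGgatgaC
The differences are scattered. As no shared run exceeds 14 bases, 0 of 398 windows of 50 bases were identical between the genes. How the reads of these libraries were assigned to each gene was not tested. UBC4 (107.5 reads) scored 0.0131, 0.00379 and 0.00737 per fl in experiments 1, 2 and 3, -0.0161 per fl in the time course, and 3.39 and -0.0552 per hour in WT. UBC5 (88 reads) scored -0.0117, 0.0102 and 0.0178 per fl, -0.0219 per fl in the time course, and 0.541 and 0.0240 per hour in WT. The pair differed in order, UBC4 being the higher in experiment 1 and UBC5 in experiments 2 and 3. Of the 9 E2 genes, 5 carry an intron (UBC4, UBC5, UBC8, UBC9 and UBC13), and so does AMA1, which makes 6 of the 42 genes (14.3%) against 5.30% of 6002 protein-coding genes.

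Of the 3 E3 genes, RSP5, which encodes the HECT ligase of membrane protein sorting (25 reads), scored 0.0159, 0.0107 and 0.00775 per fl, -0.0208 per fl in the time course, and -0.140 and -0.0511 per hour in WT. UFD4, which encodes the HECT ligase of the ubiquitin fusion pathway (65.5 reads), scored 0.0235, 0.00866 and 0.0197 per fl, -0.0229 per fl in the time course, and 27.8 and -0.0636 per hour in WT. UBR1, which encodes the ligase of the N-degron pathway (49 reads), scored -0.00881, 0.0123 and 0.00663 per fl. Scores of RSP5 and UFD4 were above 0 in all 3 experiments, yet neither was above the median gene in experiment 2. Cdc48, with Ufd1 and Npl4, pulls ubiquitin-tagged proteins out of complexes and membranes. CDC48 (101 reads) scored -0.00820, 0.0178 and 0.000252 per fl, -0.0211 per fl in the time course, and 29.4 and -0.0552 per hour in WT. UFD1 (44 reads) scored -0.00149, -0.00548 and 0.0114 per fl. NPL4 (42.5 reads) scored -0.00901, 0.0993 and 0.0113 per fl, -0.0265 per fl in the time course, and 1.19 and 0.119 per hour in WT. Its experiment 2 value was the second highest of the set after APC4. The mean of NPL4 over the median gene was 0.0271 ± 0.0545 per fl (SD, n = 3; limma adjusted p = 0.577). All 3 genes of the complex lay below the median gene in experiment 1. Most of the set did so there, with 3 of the 17 conjugation genes and 15 of the 42 genes above it.

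A transcript that keeps pace with cell size would score 0.0657 per fl in experiment 1, 0.0670 in experiment 2, 0.0537 in experiment 3 and 0.0464 in the time course, if abundance were set against a fixed amount of added RNA. At or above it were 1 of the 42 genes in experiment 1 (APC1, against 12.9% of genes scored), 5 in experiment 2 (APC2, APC4, CDC23, MET30 and NPL4, against 8.87%), 1 in experiment 3 (CDC34, against 3.14%) and 0 in the time course (against 0.632%). Below 0 were 21 of the 42 in experiment 1 (against 39.0% of genes scored), 15 in experiment 2 (against 30.9%), 16 in experiment 3 (against 44.7%) and all 42 in the time course (against 95.3%). Across the 42 genes the scores of experiments 1 and 2 had a Spearman correlation of 0.399, against 0.340 over all genes. Experiments 1 and 3 had -0.112, against 0.346 over all genes, and experiments 2 and 3 had -0.0398, against 0.307. These are correlations across genes of shared libraries and carry no test. Experiment 3 also differed by list, since 11 of 17 conjugation genes lay above the median gene there, against 3 of 17 in experiment 1 and 5 of 17 in experiment 2.

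The WT controls were compared by rank, since their scores run per hour. Each score became a normal score of its rank within its series, and limma set the 4 Cdc28-as series against the 2 WT series over 5296 genes, with 40 of the 42 (CDC27 and UBA1 had no score in the elutriated WT control). No gene passed the adjusted threshold of 0.05 (0 of 40 genes and 0.00% of all). At an unadjusted p under 0.05 limma had 3 of 40, DOC1, SKP1 and UBI4, against 12.5% of all genes. All 4 Cdc28-as series ranked below both WT series for DOC1, SKP1, UBI4 and UBC6 (4 of 40, against 12.1% of all genes), and above both for APC1, APC5 and CDC16 (3 of 40, against 10.5%). The median difference in normal score was -0.165 over the 40 genes and -0.0142 over all genes, and over the 40 genes it was 0.0766 with the elutriated series alone.

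UBI4 was at percentile 7.48, 16.4, 64.4 and 48.6 in experiments 1, 2 and 3 and the time course, against 98.9 in the elutriated and 68.9 in the unelutriated WT control. The groups did not overlap, and the normal score difference was -1.92 ± 0.738 (limma SE; adjusted p = 0.296). It was -1.05 without the elutriated WT control, -2.78 without the unelutriated one and -2.95 with the elutriated series alone, so its size depended on which WT series was used. SKP1 was at percentile 54.4, 24.9, 46.3 and 52.6 in the Cdc28-as series, against 87.0 and 96.2 in the WT controls, a difference of -1.58 ± 0.637 (limma SE; adjusted p = 0.318). DOC1 was at 1.66, 2.89, 19.6 and 0.790, against 33.8 and 80.1 (difference -2.19 ± 0.702, limma SE; adjusted p = 0.246), and the difference was -1.30 with the elutriated series alone. With a median of 0 reads in experiment 1, its ranks are among the least reliable. CDC16 was at 67.8, 80.0, 90.1 and 81.0 in the Cdc28-as series, against 29.7 and 49.2 in WT (difference 1.15 ± 0.631, limma SE; adjusted p = 0.470). APC1 was at 90.2, 73.4, 28.0 and 43.2, against 26.0 and 12.2, so its lowest Cdc28-as value was close to the higher WT value. UBC8 was low in all Cdc28-as series, and in WT it was at 94.8 in the elutriated and 8.19 in the unelutriated control, so its Cdc28-as values fell between the WT values except at 5.12 in experiment 2. CDH1, low in all Cdc28-as series, was also low in both WT controls, at 6.82 and 36.5. Over all genes the score and the read count had a Spearman correlation of 0.344 in the elutriated WT control and 0.0158 in the unelutriated one. The part of read depth in these ranks was not tested.

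**Figure D4:**
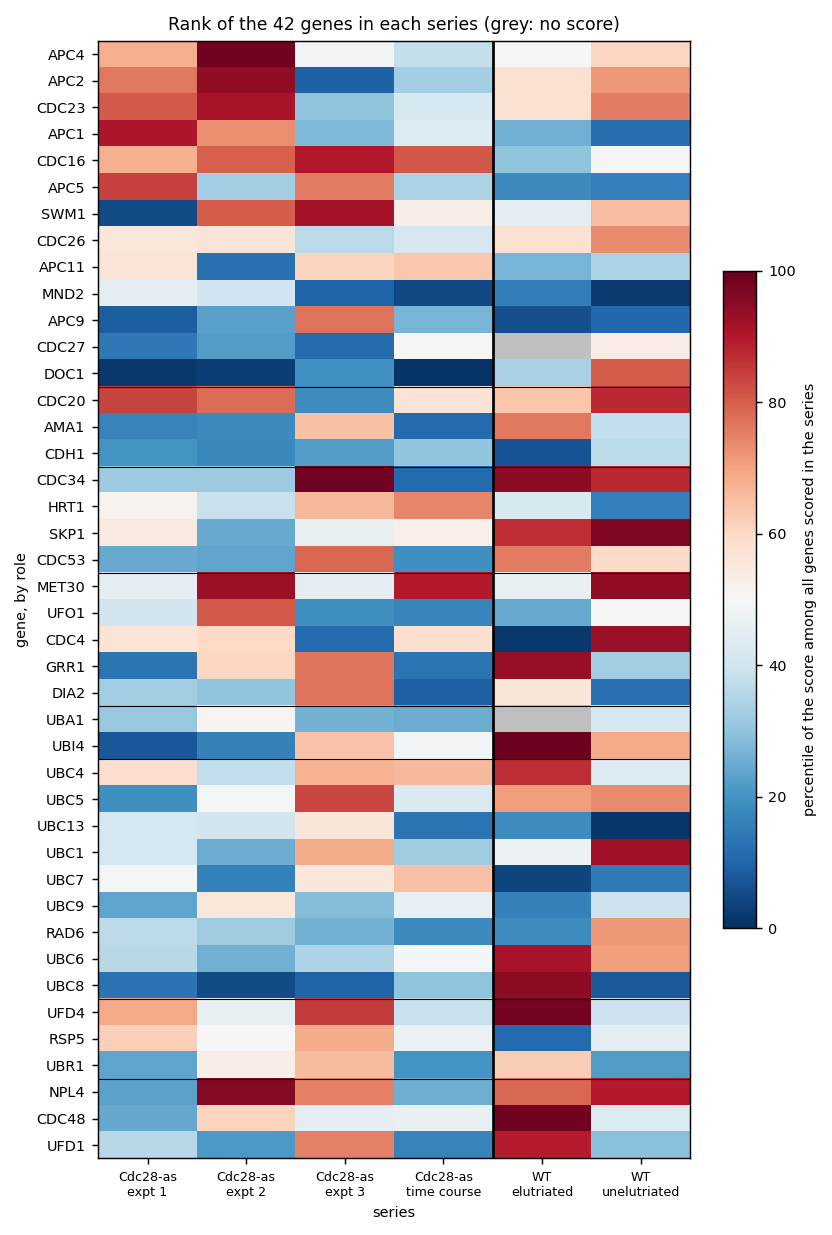
Percentile of each score among all genes of its series (colour, 0 to 100) for the 42 genes (rows, by role) in the 4 Cdc28-as series and the 2 WT series (columns). UBC8 is low in all Cdc28-as columns, and SKP1 ranks higher in both WT columns than in any Cdc28-as column.

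**Figure D5:**
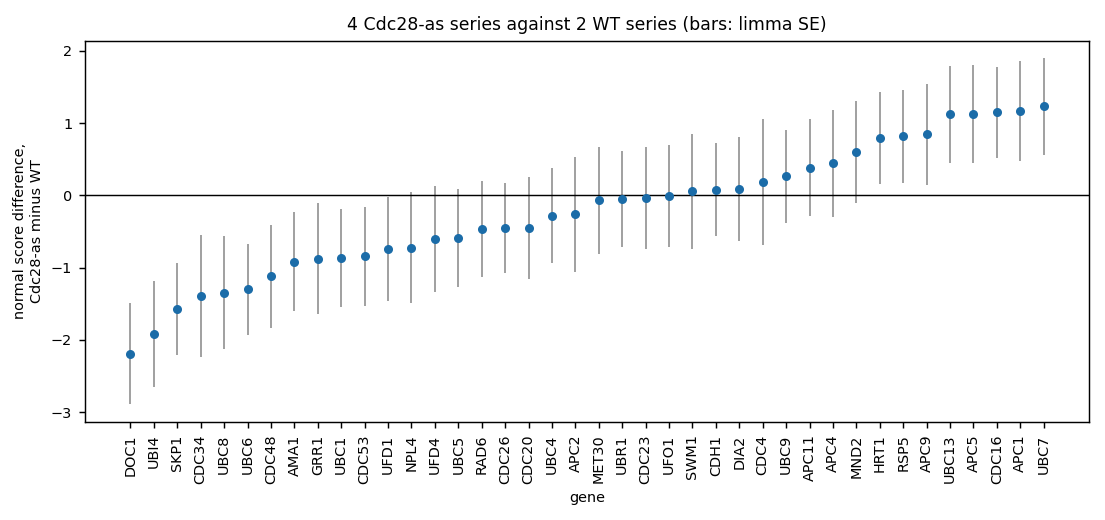
Difference in normal score, Cdc28-as minus WT (vertical axis; bars, limma SE), for the 40 genes scored in all 6 series (horizontal axis, in order of the difference). DOC1, which had a median of 0 reads in experiment 1, and UBI4 lie lowest at -2.19 and -1.92, and UBC7 highest at 1.23.

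The 300 bases before each start codon were read from the R64 genome and searched on both strands for the motif of the proteasome regulator Rpn4 (PACE, GGTGGCAAA), the stress element of Msn2 and Msn4 (STRE, AGGGG), the MBF site (MCB, ACGCGT), the SBF site (SCB, CGCGAAA) and a heat shock element core (HSE, TTCNNGAA). PACE was found before 4 of the 42 genes (9.52%), UBI4, UBA1, CDC48 and DOC1, against 1.22% of 6001 promoters. STRE was found before 11 of 42 (26.2%, against 22.2% of promoters), HSE before 4 (9.52%, against 13.1%), MCB before APC4 alone (2.38%, against 3.48%) and SCB before 0 (against 3.95%). Such matches describe letters and not bound sites. Only the letters given were searched, so other forms of these sites, the SBF site included, would be missed. The 4 promoters with PACE are shown 5′ to 3′ on the gene's strand, up to the base before the start codon, with the motif or its reverse complement in capitals.
UBI4, chrXII:65208-65507, minus strand: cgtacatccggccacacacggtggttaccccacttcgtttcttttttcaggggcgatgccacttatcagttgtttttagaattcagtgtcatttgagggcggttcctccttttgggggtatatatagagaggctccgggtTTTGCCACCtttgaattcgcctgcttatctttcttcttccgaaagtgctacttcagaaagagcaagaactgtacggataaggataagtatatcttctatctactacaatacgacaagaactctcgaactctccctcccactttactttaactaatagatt
UBA1, chrXI:38863-39162, plus strand: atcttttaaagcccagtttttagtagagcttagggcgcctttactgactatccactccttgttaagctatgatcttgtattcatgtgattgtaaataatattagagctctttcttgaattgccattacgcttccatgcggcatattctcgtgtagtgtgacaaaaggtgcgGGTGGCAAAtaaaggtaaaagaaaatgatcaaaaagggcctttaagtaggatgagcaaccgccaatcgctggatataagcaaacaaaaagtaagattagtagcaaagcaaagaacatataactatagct
CDC48, chrIV:238665-238964, minus strand: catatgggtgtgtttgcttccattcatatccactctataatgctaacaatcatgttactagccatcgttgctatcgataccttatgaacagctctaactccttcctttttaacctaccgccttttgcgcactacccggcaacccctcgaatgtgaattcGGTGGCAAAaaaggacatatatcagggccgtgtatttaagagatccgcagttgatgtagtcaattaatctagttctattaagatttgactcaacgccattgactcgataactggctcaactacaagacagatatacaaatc
DOC1, chrVII:48313-48612, plus strand: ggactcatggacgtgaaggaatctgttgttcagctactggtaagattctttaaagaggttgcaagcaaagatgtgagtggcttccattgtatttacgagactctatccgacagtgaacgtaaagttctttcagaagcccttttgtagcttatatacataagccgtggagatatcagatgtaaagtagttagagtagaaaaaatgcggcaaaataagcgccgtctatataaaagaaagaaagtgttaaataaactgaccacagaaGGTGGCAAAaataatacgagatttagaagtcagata
These 4 genes were all below the median gene in experiment 1, at -0.0288 per fl for UBI4, -0.0117 for UBA1, -0.0156 for CDC48 and -0.0504 for DOC1. Most of the set was below it there, with 15 of the 42 genes above, and DOC1 had a median of 0 reads. In experiment 2 UBA1 and CDC48 were above it, at 0.000202 and 0.00678 per fl over the median gene, and in experiment 3 UBI4 was, at 0.00433 per fl.

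Other genes of the pathway were taken from lists chosen with earlier results of these data known, and limma called 0 in each at an adjusted p of 0.05. At an unadjusted p under 0.05 it had 0 to 2 genes a list, against 8.99% of all genes. The counts above and below the median gene that follow stand against 22.3% and 22.5% of all genes. Among 11 other F-box genes, 2 were on the higher side of the median gene throughout the 3 experiments and 2 on the lower. Among 23 other ubiquitin ligases it was 1 above and 5 below, among 20 deubiquitinases 2 above and 5 below, and among 11 Cdc48 cofactors 1 above and 4 below. In the SUMO and Rub1 pathways 3 of 13 tested lay above and 3 below. The highest of the deubiquitinases was OTU2, at 0.163, 0.129 and 0.0196 per fl, and the lowest DOA4, which recycles ubiquitin at endosomes, at -0.0108, -0.0139 and -0.0139 per fl. Substrates and inhibitors of the APC had 3 of 15 above and 1 below, with the polo kinase gene CDC5 highest at 0.191, 0.0578 and 0.0187 per fl. SCF substrates had 4 of 9 above and 1 below (44.4% and 11.1%). The highest of them was GIC2, which encodes an effector of the polarity GTPase Cdc42, at 2.24, 0.0976 and 0.0446 per fl. MET4, which encodes the sulphur regulator that Met30 restrains, was the lowest at -0.0223, 0.00266 and -0.00797 per fl.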

How the data were processed

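RNA-seq of 31 libraries in 6 series was summarised by the authors in 1 deposited table. For 6713 genes the authors deposited a scaling score in each series, and how it was computed is unstated. The authors also deposited a rank and a median read count in experiment 1, a signal per gene that is not whole for 2779 genes. The submitters' processing notes name Bowtie2 and genome build R64. For counting, strand use and normalization, nothing is stated. The score was read as a slope because 104 and 111 genes in experiments 1 and 3 hold, within 1e-07, the slope of a gene seen only in the first library. All 42 members matched an R64 locus tag, and 6022 of the 6713 identifiers did. No member's annotated gene overlaps another gene in R64.

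Scores less the median gene's were tested over 5771 genes with limma 3.58.1 (R 4.3.3), one-sample across the 3 elutriation experiments, and normal scores of ranks over 5296 genes, Cdc28-as against WT, both with Benjamini-Hochberg adjustment at 0.05. The fits were also run on simulated scores with known changes. That run required the right sign for most genes with the largest changes, and required nothing of the number of genes called. The members, the other gene lists and the tests were chosen with earlier results of these data known. The rule for named genes takes members that kept 1 side of the median gene across the 4 Cdc28-as series, the 3 highest and 3 lowest means of each group, and a fixed set of known regulators. The other members are given by their scores. Alternatives changed the centring, a filter at 10 reads, the scale, the series used and limma's moderation.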

Additional observations from a re-analysis of the deposited data

Results flagged for a closer look

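Among the 4 Cdc28-as series, 3 of the 42 genes had a single series far from the other 3, by a gap divided by the whole range above Dixon's critical value for 4 values (normal scores of ranks). Chance alone flags about 1 gene in 20. The share flagged among all genes was not computed, so the 3 are listed as a description. CDC4 had a gap share of 0.942, with normal scores of 0.158, 0.250 and -1.34 in experiments 1, 2 and 3 and 0.209 in the time course, so experiment 3 stood apart. CDC53 had 0.887, with -0.721, -0.791 and 0.789 in experiments 1, 2 and 3 and -0.912 in the time course, again with experiment 3 apart. APC11 had 0.865, with 0.148, -1.23 and 0.263 in experiments 1, 2 and 3 and 0.365 in the time course, where experiment 2 stood apart.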

How the results depend on the processing

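Limma called 0 genes and 0 of the members under every alternative run for both comparisons. In the elutriation experiments between 154 and 1257 genes had an unadjusted p under 0.05, and the lowest adjusted p over all genes was between 0.0778 (normal scores) and 0.665 (without experiment 1). Without centring on the median gene, 9 members lay above 0 in all 3 experiments. The median gene itself scored above 0 in each, and the share of all genes above 0 in all 3 was not taken. The list medians of means were then 0.0144 per fl for the APC core, -0.00513 for the APC activators, 0.00580 for the F-box genes and 0.00333 for all members. With centring they had been 0.00772, -0.0118, -0.000917 and -0.00339. The APC core median was -0.000108 per fl with only genes of at least 10 reads, a filter that removes APC4, CDC23, DOC1 and SWM1. On normal scores the APC activator median was -0.553. Leaving out each experiment in turn gave 5 to 8 members above and 8 to 18 below the median gene in both that remained, fewer experiments being easier to pass. The matching shares of all genes were not taken, so these counts do not set the members apart from other genes. Those left-out medians ran from 8.09e-05 to 0.00374 per fl for the APC core, from -0.0187 to -0.00716 for the activators and from -0.00448 to 0.00839 for the F-box genes. The mean of a member changed sign for 16 of 42 without centring, for 12 without experiment 2, 6 without experiment 1 and 4 without experiment 3. Against WT, the median difference over members was -0.165 and ran from -0.400 to -0.0296 when each series was left out in turn, and the difference changed sign for 10 of 40 without the elutriated WT control and 5 without the unelutriated. No paired analysis was possible because the numbers of the libraries mark points along a series and the table holds no values per library. Depth per library is unknown, and members under 10 reads (APC4, CDC23, DOC1, SWM1 and UFO1) are the least reliable.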
